A study of Homo sapiens with 36 samples.

Results

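The genes described here are 6 E1 enzyme genes and 1 polyubiquitin gene: UBA1, UBA6, UBA2, SAE1, UBA3, NAE1 and UBB, 7 of the 58219 genes in the RNA tables and of the 43582 in the ribosome footprint tables. All 7 were listed in every table. They were taken by symbol, after an earlier pass over these data had found UBA1 footprints lower at 72 h. The 72 h footprint values of UBA1, and the translational efficiencies made from them, are therefore given as a description with no test, and the same is done for the other 6 genes at that time.

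WiT49 is a cell line from an anaplastic Wilms tumor, a childhood kidney tumor. Cells received actinomycin D (actD), which binds DNA and can block transcription, at 2 nM, or the vehicle dimethyl sulfoxide (DMSO), in complete growth medium. The relative levels used here do not show how far transcription was blocked at this dose. Exposure lasted 6 h or 72 h, or ran over 2 weeks as 2 cycles of 7 days, each made of 3 days with drug or vehicle and 4 days in plain medium. Every group held 3 libraries, in total RNA (18 libraries) and in ribosome footprints (18 libraries), the short RNA pieces that ribosomes protect from nuclease. The labels do not say whether replicates were separate cultures, so the p-values measure the spread between these libraries. All groups come from 1 cell line. For the 2-week RNA libraries the titles state one treatment and the library names the other. They are called the libraries named actd and named dmso here, and every direction given for them turns over if the titles are right.

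Ubiquitin is a small protein that cells attach to other proteins, often as chains that mark them for the proteasome. An E1 enzyme activates ubiquitin with ATP and hands it to an E2 enzyme, and an E3 ligase then guides it to the target. UBA1 is the E1 that charges most ubiquitin E2 enzymes, and UBA6 is a second ubiquitin E1 with its own E2, UBE2Z. The related modifiers have E1 enzymes of 2 subunits: SAE1 and UBA2 form the one for SUMO, and NAE1 and UBA3 the one for NEDD8, which activates the cullin-based E3 ligases. Ubiquitin itself is encoded by several genes, among them UBB, which holds head-to-tail repeats of it, and RPS27A, which encodes it fused to a ribosomal protein. The series title concerns proteasome inhibition together with actD in this tumor, which places these genes upstream of the proteasome.

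The repeats of UBB bear on how far its reads can be told from those of other genes, so their starts are shown. In GENCODE 29 the coding sequence of UBB has 687 bases, made of 3 ubiquitin units of 228 bases (76 codons) and 3 further bases. The first 60 bases of each unit are given 5′ to 3′, with capitals at the 5 positions in this stretch at which the units differ.
UBB unit 1: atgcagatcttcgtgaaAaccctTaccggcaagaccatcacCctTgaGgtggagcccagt
UBB unit 2: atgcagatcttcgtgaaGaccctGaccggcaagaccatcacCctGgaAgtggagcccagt
UBB unit 3: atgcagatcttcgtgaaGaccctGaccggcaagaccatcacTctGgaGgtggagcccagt
Over all 228 bases the units were 94.7% to 96.5% identical to each other. The longest run that UBB shared with RPS27A had 28 bases (from coding base 79).
UBB and RPS27A: aaggccaagatccaggataaggaaggca

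Of the windows of 28 bases along the UBB coding sequence, about the length of a footprint, 78.3% also occurred in transcripts of other genes. The pseudogene UBBP4 held 64.1% of the windows and UBBP1 32.7%. With windows of 75 bases the share for UBB was 15.7%. For the SUMO E1 subunits it was 25.4% of 28-base windows for UBA2 and 14.7% for SAE1, all in processed pseudogenes, for NAE1 it was 0.442%, and for UBA1, UBA6 and UBA3 it was 0. Values of UBB, and to a lesser degree of UBA2 and SAE1, are therefore uncertain, since how the counting treated such reads is not given in the sources used here.

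In GRCh38 (hg38), UBA1 (ENSG00000130985.16) spans positions 47190861 to 47215128 on the plus strand of chromosome X. UBA6 (ENSG00000033178.12) lies on chromosome 4 (67612652 to 67701179, minus strand), and UBA2 (ENSG00000126261.12) on chromosome 19 (34428352 to 34471251, plus strand). SAE1 (ENSG00000142230.11) is on the same chromosome (47113274 to 47210636, plus strand). UBA3 (ENSG00000144744.16) occupies chromosome 3 (69054730 to 69080408, minus strand), NAE1 (ENSG00000159593.14) chromosome 16 (66802875 to 66873256, minus strand) and UBB (ENSG00000170315.13) chromosome 17 (16380798 to 16382745, plus strand). Exons of UBA3 and UBB overlap those of the antisense genes AC109587.1 and AC093484.3. Whether the counting used strand is not given in the sources used here.

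RNA libraries held 40221994 to 69240041 counts and footprint libraries 152556 to 1281039. Protein-coding genes took 52.9% to 76.3% of the counts in RNA libraries but a smaller part in footprint libraries. The lowest footprint share was 2.12% (27153 counts), in actD library 1 of 6 h, which had the highest total. The highest was 40.4%, in actD library 3 of 72 h. DMSO library 3 of 72 h, with the lowest total, had 26831 such counts. How far this share affects the footprint levels was not tested. Levels are given as CPM, the counts of a gene relative to those of all genes kept by the filter on low counts. These sums per library were scaled by the trimmed mean of M-values (TMM) within each table. In the 72 h footprint libraries 3 counts corresponded to 3.57 to 37.3 CPM, so a listed 0 there allows a level up to that limit, for counting error only. Of 9 markers of Wilms tumor or nephron progenitors, 3 reached 1 CPM in each RNA table, WT1 and NCAM1 among them, and none of the 9 was at 0 throughout a table. Of 7 markers of blood, endothelium, erythroid cells and hepatocytes, CD68 alone reached 1 CPM, at 6 h, and 3 or 4 were at 0 throughout a table; their summed level at 72 h was 0.684 to 1.43 CPM under actD and 0.187 to 1.28 CPM under DMSO. At 72 h mitochondrial ribosomal RNA took 24.6% to 32.3% of RNA counts under actD against 15.5% to 22.5% under DMSO, and 12.4% to 21.0% against 4.80% to 10.6% of footprint counts. At 2 weeks it took 25.8% to 31.2% of RNA counts in the libraries named actd against 19.6% to 22.9% in those named dmso, and 5.10% to 6.24% against 3.07% to 4.00% of footprint counts. Its part in the results was not tested.

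Compared per length, as CPM per kilobase of exon in the DMSO libraries, UBB RNA had the highest level of the 7 at each time and UBA6 the lowest. The length is that of all annotated exons of a gene merged, not of the transcript expressed, so the order also depends on the annotation. At 6 h the RNA levels per kilobase were 127.5 to 156 for UBB, 67.2 to 80.3 for UBA2, 61.2 to 79.0 for SAE1 and 61.5 to 68.5 for UBA1. UBA2, SAE1 and UBA1 overlapped each other. They were followed by NAE1 (21.1 to 25.1 CPM per kilobase), UBA3 (7.89 to 9.17) and UBA6 (4.73 to 6.26), none of which overlapped its neighbours. Within the NEDD8 E1, RNA of the catalytic subunit UBA3 was thus at a lower level per length than that of its partner NAE1, whereas the SUMO E1 subunits UBA2 and SAE1 overlapped at 6 h. In the 72 h DMSO libraries UBA1 RNA ranged from 17.3 to 47.8 CPM per kilobase and overlapped NAE1 (26.3 to 34.3), while UBA2 (70.2 to 72.5) lay above SAE1 (49.4 to 53.4). In the 2-week libraries named dmso UBA1 (52.9 to 57.3 CPM per kilobase) ranked second, with all its libraries above those of UBA2 (40.6 to 52.2). Tables of different times were scaled separately, so only the order within a table is compared.

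**Figure D1:**
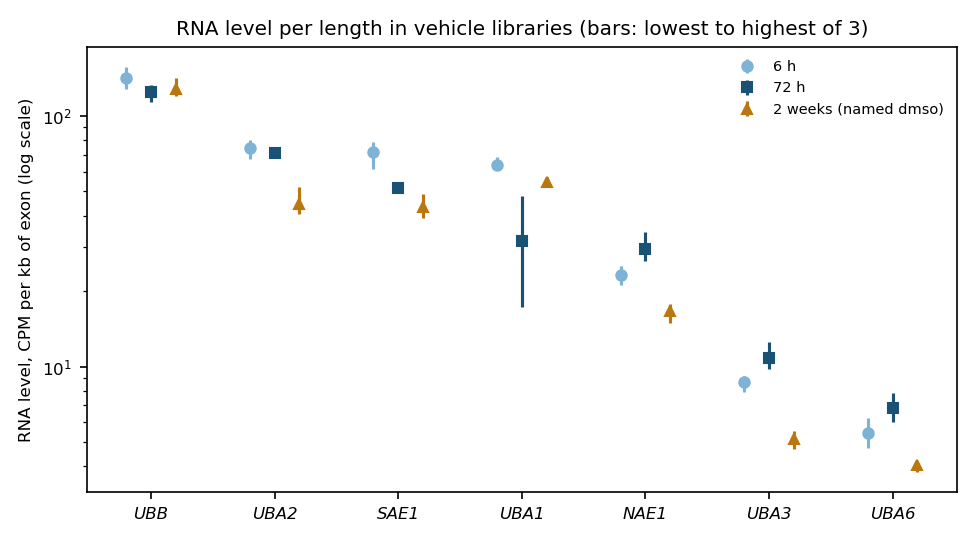
RNA level per length of the 7 genes in the vehicle libraries, in CPM per kilobase of exon on a log scale; points are means of 3 libraries and bars run from the lowest to the highest. UBB was highest at each time, UBA6 was lowest, and UBA1 spread most in the 72 h libraries (17.3 to 47.8).

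RNA of UBA1, the main ubiquitin E1, was lower on average under actD at 6 h and 72 h, without passing the test. At 2 weeks it was lower in the libraries named actd, so the direction there depends on which labels are right. At 6 h its RNA level was 339.6, 368 and 241 CPM in the actD libraries and 396, 398 and 441 CPM in the DMSO libraries. The groups did not overlap, and the log2 fold change was -0.38 (SE 0.17, edgeR adjusted p = 0.622). It ranged from -0.50 to -0.22 with 1 library left out, and was nearest to 0 without actD library 3, the lowest (edgeR adjusted p = 0.700). At 72 h the levels were 79.5, 94.1 and 146 CPM under actD and 192, 308 and 111.5 CPM under DMSO. Here the groups overlapped, because DMSO library 3 lay below actD library 3; the log2 fold change was -0.93 (SE 0.40, edgeR adjusted p = 0.378). Without DMSO library 2, the highest, it was -0.51 (edgeR adjusted p = 0.552). The difference for UBA1 RNA at 72 h was already known when the genes were chosen, so its p-values at 72 h are no independent test.

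At 2 weeks UBA1 RNA stood at 332, 199.99 and 202 CPM in the libraries named actd and at 341, 369 and 343 CPM in those named dmso. These groups were apart, narrowly for library 1 of those named actd, and the log2 fold change was -0.52 (SE 0.20, edgeR adjusted p = 0.525). Without library 1 of those named actd it was -0.79 (edgeR adjusted p = 0.0706). Under the titles the same libraries give a difference of 0.52 in the opposite direction. In bulk RNA a lower level per cell and fewer cells that express a gene cannot be told apart.

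RNA of UBA6, the second ubiquitin E1, differed less. Its log2 fold change was -0.07 at 6 h (SE 0.14, edgeR adjusted p = 0.941) and -0.45 at 72 h (SE 0.26, edgeR adjusted p = 0.511). At 72 h actD libraries 1 and 2 held 47.4 and 44.9 CPM, below all DMSO libraries (68.8 to 89.9 CPM), but actD library 3 held 79.0 CPM. That library, also the highest of its group for UBA1, made the groups overlap: without it the log2 fold change was -0.76 (edgeR adjusted p = 0.222). At 2 weeks the value was -0.15 (SE 0.14, edgeR adjusted p = 0.762).

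The SUMO E1 subunits were nearly level at 6 h and both lower at 72 h. UBA2, the catalytic subunit, had RNA levels of 261, 272 and 299.8 CPM under actD at 72 h and of 349, 344 and 338 CPM under DMSO. For SAE1, its partner, they were 147, 149 and 130.0 CPM under actD and 178, 168 and 181 CPM under DMSO. Neither gene's groups overlapped. Both log2 fold changes were -0.31 (SE 0.18 for UBA2 and 0.17 for SAE1), with edgeR adjusted p-values of 0.505 and 0.495. At 6 h they were -0.01 for UBA2 and 0.06 for SAE1, and at 2 weeks -0.01 and 0.02, with edgeR adjusted p-values from 0.950 to 0.989.

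The 2 NEDD8 E1 subunits lay on opposite sides of 0 at 72 h. RNA of NAE1, the regulatory subunit, was at 91.6, 89.5 and 96.4 CPM under actD and at 165, 127 and 132 CPM under DMSO. Every actD library was below every DMSO library, with a log2 fold change of -0.61 (SE 0.19, edgeR adjusted p = 0.285). In 1 fit over all time points, which shares the spread of the 18 RNA libraries, NAE1 was the only one of the 7 that passed (log2 fold change -0.58, edgeR adjusted p = 0.0202). That fit called 4.89% of all genes at 72 h (1212 of 24803). RNA of UBA3, the catalytic subunit, was at 54.4, 49.5 and 66.2 CPM under actD and at 51.6, 40.3 and 41.8 CPM under DMSO, with 1 DMSO library inside the actD range. Its log2 fold change was 0.35 (SE 0.20, edgeR adjusted p = 0.501). The difference between the effects on NAE1 and UBA3 was not tested. At 6 h NAE1 and UBA3 gave 0.03 and -0.08, and at 2 weeks -0.05 and 0.10, with edgeR adjusted p-values from 0.830 to 0.973.

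RNA of UBB, the polyubiquitin gene, was at 263, 234 and 379 CPM under actD and at 254, 232 and 207 CPM under DMSO at 6 h. Libraries 1 and 3 of the actD group lay above all DMSO libraries and library 2 inside their range. The log2 fold change was 0.34 (SE 0.19, edgeR adjusted p = 0.699), and without actD library 3, the highest, it was 0.10. At 72 h it was -0.20 (SE 0.19, edgeR adjusted p = 0.678) and at 2 weeks 0.10 (SE 0.12, edgeR adjusted p = 0.828), with overlapping groups both times.

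**Figure D2:**
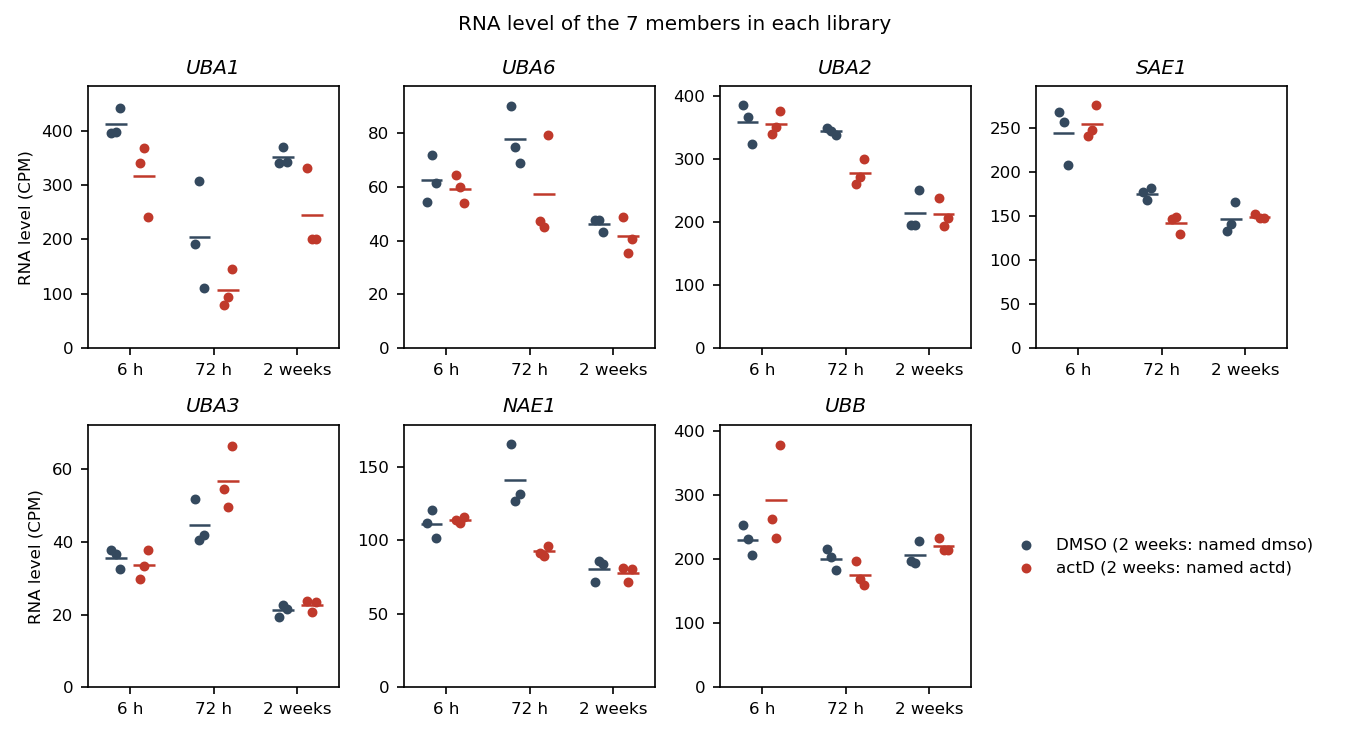
RNA level (CPM) of each of the 7 genes in every library, with points for libraries and lines for group means; each panel has its own axis from 0. At 72 h the actD libraries of UBA2, SAE1 and NAE1 lie below all DMSO libraries, while UBA1 overlaps and UBA3 lies higher on average.

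None of the 7 genes was called in RNA at any time by edgeR's quasi-likelihood test (adjusted p under 0.05), nor by DESeq2. At an unadjusted p under 0.05 edgeR gave 0 of 7 at 6 h, 2 at 72 h (UBA1 and NAE1) and 1 at 2 weeks (UBA1). The 72 h difference of UBA1 was known beforehand, so its place in that count is no independent result. Over all genes 0% of 22669 were called at 6 h, 0.00472% of 21195 at 72 h and 0% of 21137 at 2 weeks, while 1862, 2768 and 1888 had an unadjusted p under 0.05. DESeq2 called 204, 605 and 197 genes at these times.

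Groups lay apart and lower under actD for 1 of the 7 genes at 6 h (UBA1) and for 3 at 72 h (UBA2, SAE1 and NAE1). At 2 weeks 1 (UBA1) was apart and lower in the libraries named actd. All 2-week directions here follow the library names. The background share of all tested genes apart and lower was 8.17% at 6 h, 10.3% at 72 h and 7.83% at 2 weeks. No gene of the 7 was apart and higher, which over all genes held for 7.66%, 10.5% and 7.86%. At 72 h 6 of the 7 log2 fold changes were below 0, the known UBA1 value among them, with a median of -0.31 against 0.02 over all genes. At 6 h 4 of 7 were below 0 and the median was -0.01, against 0.02 over all genes.

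Whether the RNA effect of actD differed between 72 h and 6 h was tested with a treatment by time interaction in the 12 RNA libraries of these times. No member of the 7 was called, 1 (NAE1) had an unadjusted p under 0.05, and DESeq2 called none. Over all genes 0.0165% of 24251 were called and 8.02% (1944) had an unadjusted p under 0.05. The effect on NAE1 was lower at 72 h by a log2 difference of -0.66 (SE 0.21, edgeR adjusted p = 0.494), the largest in size of the 7. UBA1 and UBB both had a log2 difference of -0.56 (edgeR adjusted p = 0.797 and 0.657), and UBA3 had 0.41 (0.713). For UBA1 the value shrank to -0.13 without DMSO library 2 of 72 h. Its 72 h RNA difference was known beforehand, so its p-value here is no independent test. The 2-week RNA libraries were kept out of this test because of their conflicting labels.

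In footprints 3 of the 7 genes, UBA1, NAE1 and UBB, passed the filter on low counts at each time. UBA6, UBA2, SAE1 and UBA3 had 0 to 15 counts in each footprint library. At 72 h, for example, UBA2 was listed at 0 in 5 libraries and held 15 counts in actD library 3, although its RNA per length was the second highest of the 7. Per kilobase of coding sequence the DMSO footprint means at 72 h were 264 CPM for UBB, 179 for UBA1, 17.4 for NAE1, 6.46 for UBA3 and 2.85 for SAE1. The ratio of footprint CPM to RNA CPM in the DMSO group at 72 h was 3.16 for UBA1, 0.899 for UBB, 0.234 for NAE1 and 0.0215 for SAE1. These ratios compare group means of separately scaled tables, so they set an order among genes and not a number of ribosomes.

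UBA1 had the strongest footprint difference of the 3 genes, and it is the value by which the set was found. At 72 h its footprint level was 80.6, 114 and 177 CPM under actD and 739.7, 721 and 473 CPM under DMSO, from 54, 42 and 149 counts against 327, 215 and 38 counts. The highest actD library lay below the lowest DMSO library. The fitted log2 fold change was -2.38 (SE 0.49), a 5.20-fold lower level, and it ranged from -2.63 to -2.08 over 12 alternative settings. DMSO library 3 had the lowest total of all footprint libraries (152556 counts), and without it the value was -2.52. Over all genes 3.79% of 2426 were called at 72 h, and 16.2% were apart and lower and 19.5% apart and higher under actD. As the set was chosen from this contrast, nothing is read from UBA1 against those shares.

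NAE1 and UBB footprints at 72 h spread more within groups than between them. NAE1 held 28.4, 29.9 and 38.1 CPM under actD and 45.2, 53.6 and 0 CPM under DMSO, the 0 being the library with the fewest counts. UBB held 151, 253 and 38.1 CPM under actD and 208, 248 and 87.1 CPM under DMSO. The fitted log2 fold changes were -0.32 (SE 0.53) and -0.36 (SE 0.68). With 1 library left out they ran from -0.56 to -0.063 for NAE1 and from -0.92 (without actD library 2) to 0.20 (without actD library 3) for UBB, so the sign for UBB rested on 1 library.

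At 6 h UBA1 footprints were at 140.5, 154 and 128 CPM under actD and at 272, 177 and 129 CPM under DMSO. All 3 actD libraries lay near the lowest DMSO library, and the log2 fold change was -0.45 (SE 0.54, edgeR adjusted p = 0.889). With library totals in place of TMM, a scaling that moved the median of all genes to -0.55, it was -1.33 (edgeR adjusted p = 0.981). NAE1 held 16.5, 10.6 and 17.98 CPM under actD and 19.4, 22.1 and 18.4 CPM under DMSO, from 4 to 19 counts a library. It was the only gene of the 3 whose groups were apart, narrowly, with a log2 fold change of -0.40 (SE 0.43, edgeR adjusted p = 0.889). Over all genes 5.69% were apart and lower and 3.71% apart and higher. UBB gave 0.37 (SE 0.52, edgeR adjusted p = 0.889), and -0.17 without actD library 3.

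At 2 weeks, where titles and names of the footprint libraries are in accord, UBA1 footprints were at 169, 69.5 and 74.3 CPM under actD and at 209, 147 and 108.7 CPM under DMSO. Library 1 of the actD group lay inside the DMSO range, and the log2 fold change was -0.57 (SE 0.48, edgeR adjusted p = 0.700). Without that library it was -1.11 (edgeR adjusted p = 0.322). NAE1 and UBB gave 0.14 (SE 0.36) and 0.04 (SE 0.38), with edgeR adjusted p-values of 0.912 and 0.978. None of the 3 was apart in either direction, against 6.57% lower and 8.32% higher over all genes.

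None of the 3 genes was called in footprints at 6 h or 2 weeks by edgeR, none had an unadjusted p under 0.05 and DESeq2 called none. Over all genes edgeR called 0% of 1212 at 6 h and 0% of 1598 at 2 weeks, with 38 and 137 genes at an unadjusted p under 0.05. DESeq2 called 12 and 0.

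**Figure D3:**
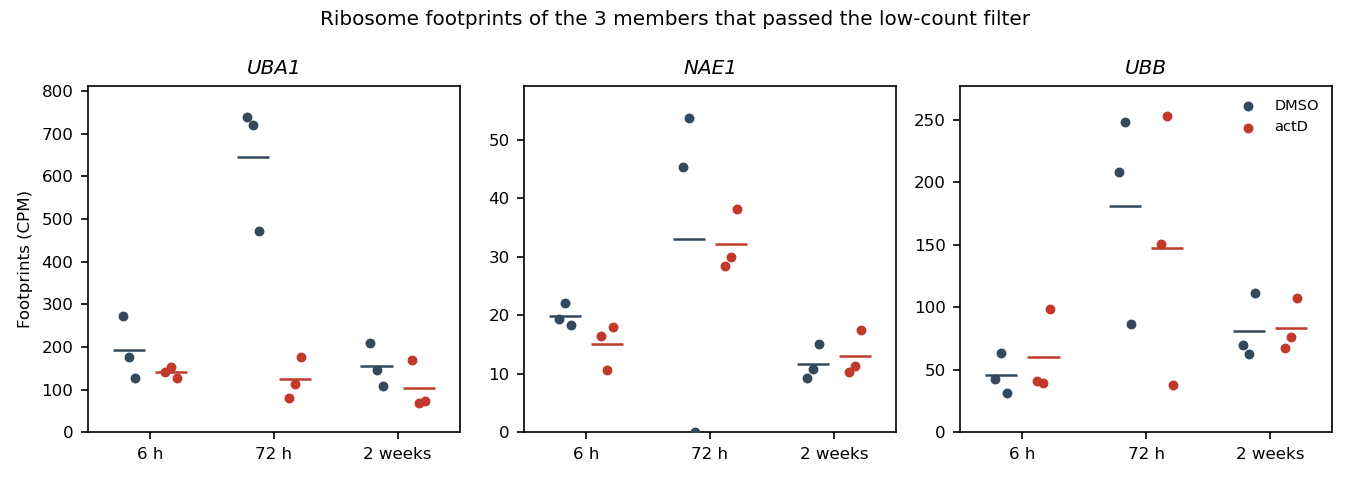
Footprint level (CPM) of UBA1, NAE1 and UBB in every library, with points for libraries and lines for group means; each panel has its own axis from 0. At 72 h the DMSO libraries of UBA1 (473 to 739.7 CPM) lie above all its actD libraries of that time. NAE1 has a listed 0 in 1 DMSO library of 72 h. Each time was scaled separately, so heights are not compared between times.

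The share of counts in long genes was set beside UBA1. The gene has 3610 bases of merged coding sequence, and the share of protein-coding counts in genes with at least 3000 coding bases, a measure added after its values were seen, includes UBA1 itself. In the 72 h footprints this share was 13.3%, 13.7% and 18.01% under actD and 25.3%, 24.1% and 22.4% under DMSO, with no overlap. The actD library with the highest share was also the one with the most UBA1 footprints. In the 72 h RNA the share was 14.2% to 16.5% under actD and 14.4% to 19.1% under DMSO, and DMSO library 2, the highest for UBA1 RNA, had the highest share. In the 2-week footprints actD library 1, the highest of its group for UBA1, had a share of 25.3% against 19.3% and 17.7% in the other two, and the DMSO libraries had 19.8% to 30.3%. In the 6 h footprints the DMSO libraries did not follow UBA1: the shares were 20.7%, 24.3% and 17.997% under actD and 25.1%, 24.0% and 26.0% under DMSO, and DMSO library 3, with the highest share, had the lowest UBA1 level of its group. With values centred within groups, Pearson's r between the share and UBA1 on a log2 scale was 0.808 over the 18 RNA libraries. Over the 18 footprint libraries it was 0.733. The part of this share in the UBA1 difference was not tested.

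Translational efficiency, the footprint change beyond the RNA change, was fitted as an assay by treatment interaction. For UBA1 at 72 h the log2 difference was -1.62 (SE 0.56), a description only. At 6 h UBA1 gave -0.01 (SE 0.40, edgeR adjusted p = 0.998) and at 2 weeks -0.09 (SE 0.50, edgeR adjusted p = 0.990), where the RNA arm follows the library names. With the RNA groups by title the 2-week value was -1.10, and with 1 library left out it ran from -0.62 to 0.18. For NAE1 the log2 differences were -0.42 (SE 0.27, edgeR adjusted p = 0.941) at 6 h and 0.13 (SE 0.31, edgeR adjusted p = 0.990) at 2 weeks. UBB gave -0.03 and -0.12 at these times (edgeR adjusted p = 0.998 and 0.990). At 72 h NAE1 and UBB gave 0.13 (SE 0.54) and -0.34 (SE 0.73), again as descriptions. Both changed sign with 1 library left out, NAE1 to -0.16 without DMSO footprint library 3 and UBB to 0.18 without actD footprint library 3.

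With the 2-week RNA groups by library name, no efficiency of the 3 genes was called at 6 h or 2 weeks. None had an unadjusted p under 0.05 and DESeq2 called none. Over all genes edgeR called 0% of 951 at 6 h, 0.433% of 2311 at 72 h and 0% of 1441 at 2 weeks. At an unadjusted p under 0.05 there were 50 genes at 6 h and 74 at 2 weeks, and DESeq2 called 1 each time. With the 2-week RNA groups by title, edgeR gave 1 of the 3 genes an unadjusted p under 0.05 at 2 weeks. None of the 3 was called under the titles, against 27 of 1441 over all genes.

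**Figure D4:**
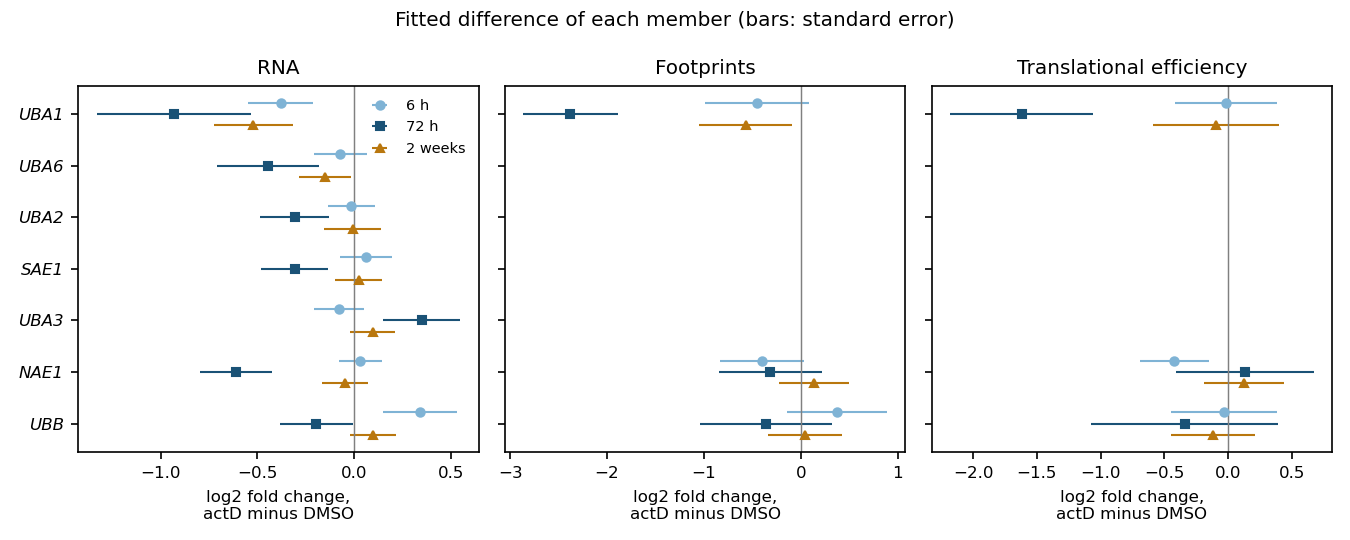
Fitted log2 fold change, actD minus DMSO, of each gene in RNA, footprints and translational efficiency, with bars for the standard error and colours for time; each panel has its own axis. UBA1 at 72 h lies farthest from 0 in each panel (-0.93, -2.38 and -1.62), and 4 genes have no footprint value because they did not pass the filter on low counts.

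The other genes of the ubiquitin and ubiquitin-like pathways were taken from 7 lists with 85 genes, all tested in RNA. None was called in RNA by edgeR at any time. At an unadjusted p under 0.05 there were 9 at 6 h, 14 at 72 h and 3 at 2 weeks, and DESeq2 called 1, 0 and 0. In the test of 72 h against 6 h none was called, 2 had an unadjusted p under 0.05 and DESeq2 called none.

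RPS27A, which encodes ubiquitin fused to a ribosomal protein, gave a log2 fold change of -0.40 in RNA at 72 h (SE 0.30, edgeR adjusted p = 0.605), and UBB, with -0.20, lay nearer to 0. At 6 h and 2 weeks RPS27A gave 0.20 and -0.08 (edgeR adjusted p = 0.807 and 0.893).

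At 72 h 2 of the 4 E1 genes outside the set were below 0 in RNA, and ATG7, the E1 of the autophagy modifiers, gave -0.65 (SE 0.28, edgeR adjusted p = 0.389). Of 9 ubiquitin-like modifiers 7 were above 0, with a median of 0.24, and ISG15, an interferon-induced modifier, gave 0.65 (SE 0.21, edgeR adjusted p = 0.298). The 34 E2 enzymes had a median of 0.04, with 19 above 0 and 15 below. Of the E2 enzymes that serve the 7 genes, UBE2Z (UBA6) gave 0.32, and UBE2F and UBE2M (NEDD8) 0.04 and 0.21, with edgeR adjusted p-values of 0.800, 0.960 and 0.777. The E2 named by the rule for the largest difference was UBE2O, an E2 that also acts as an E3, at -0.84 (SE 0.34, edgeR adjusted p = 0.361).

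Further SUMO enzymes numbered 11, of which 7 were below 0 at 72 h (median -0.10), and RANBP2, a SUMO E3 of the nuclear pore, gave -0.72 (SE 0.22, edgeR adjusted p = 0.282). Of 12 NEDD8 and cullin genes 7 were below 0 (median -0.14), and CAND1, which exchanges the substrate receptors of cullin ligases, gave -0.76 (SE 0.28, edgeR adjusted p = 0.339). Of 12 deubiquitinases 8 were below 0 (median -0.13), and USP7 gave -0.67 (SE 0.29, edgeR adjusted p = 0.383). The median over all genes was 0.02.

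In 72 h footprints 25 of the 85 genes passed the filter, and 3 were called: UBE2O and CAND1 lower and UBE2G2 higher, with 12 at an unadjusted p under 0.05. UBE2O and UBE2G2 passed the filter only through the group in which they were high. Both counts include such genes, so neither is read against the shares over all genes. Over all genes tested there 3.79% of 2426 were called and 27.3% (663) had an unadjusted p under 0.05. These libraries are those of the known UBA1 difference, so the calls are no independent support for it. CAND1 was over the filter's count limit in all 6 libraries. It was at 40.3, 46.2 and 71.4 CPM under actD and at 258, 255 and 124 CPM under DMSO (log2 fold change -2.03, SE 0.43, edgeR adjusted p = 0.0473). Its groups did not overlap. This call was lost without any one of actD libraries 1 and 2 and DMSO libraries 1 and 2 (edgeR adjusted p = 0.159 to 0.232). DESeq2 called CAND1.

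UBE2O and UBE2G2 passed the filter through 1 group alone, so they are given as values with no test. UBE2O was over the limit in the 3 DMSO libraries and in 0 actD libraries, with 22.4, 24.5 and 19.0 CPM under actD and 79.2, 80.5 and 49.7 CPM under DMSO. UBE2G2, an E2 of protein degradation at the endoplasmic reticulum, was over it in the 3 actD libraries and in 0 DMSO libraries. It held 48, 24 and 47 counts under actD (71.7, 65.3 and 55.9 CPM) and 0, 3 and 1 counts under DMSO. The groups of either gene did not overlap, which passing the filter through 1 group alone favours, so nothing is read from it.

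UBE2M, the E2 that receives NEDD8 from the NAE1 and UBA3 complex, was over the limit in 3 actD libraries and 1 DMSO library. It had a 72 h footprint log2 fold change of 1.16 (SE 0.47) and was not called. The modifier UBL5 gave 0.99 (SE 0.38, edgeR adjusted p = 0.142). The SUMO E3 RANBP2 gave -1.69 (SE 0.57, edgeR adjusted p = 0.111), and the deubiquitinase USP9X gave -0.68 (SE 0.40, edgeR adjusted p = 0.296). For efficiency at 72 h none of these 25 was called by edgeR, 6 had an unadjusted p under 0.05 and DESeq2 called 1. Over all genes 14.9% (345 of 2311) had an unadjusted p under 0.05. CAND1 gave -1.44 (SE 0.49, edgeR adjusted p = 0.221).

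**Figure D5:**
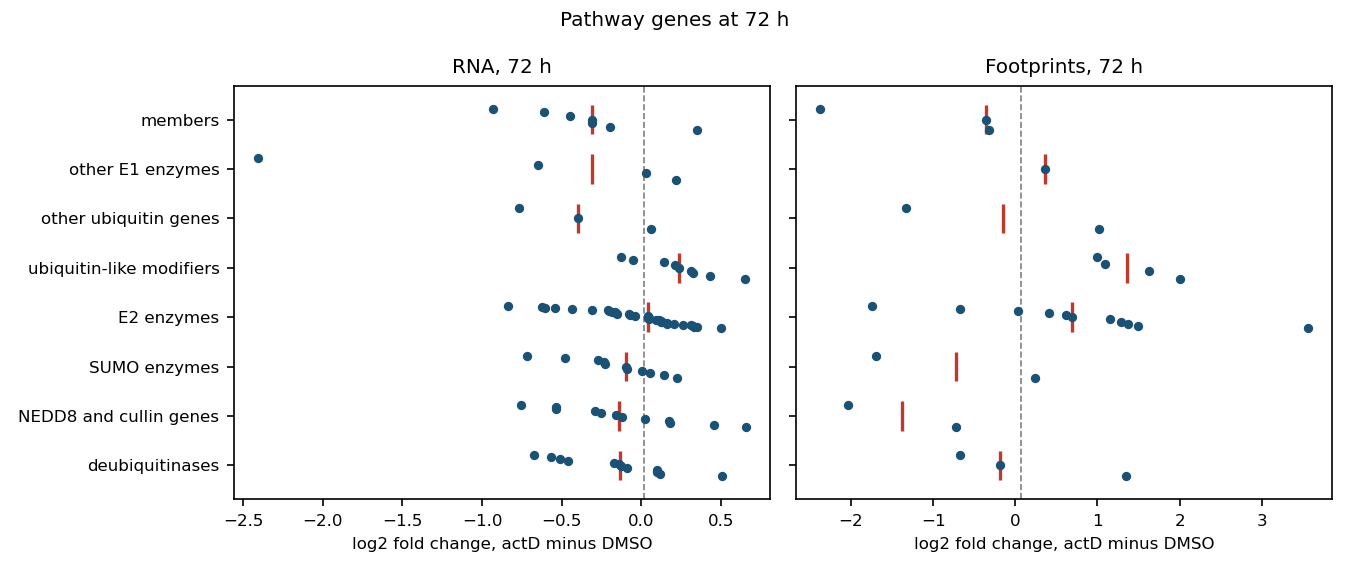
Log2 fold change at 72 h, actD minus DMSO, of each gene in the pathway lists that passed the filter on low counts, in RNA and in footprints; points are genes, red marks are list medians and the dashed line is the median over all genes. In RNA the list medians run from -0.40 to 0.24, and in footprints UBA1 and CAND1 are the lowest points and UBE2G2 the highest.

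At 6 h 10 of these pathway genes were tested in footprints and at 2 weeks 14. None was called by edgeR or DESeq2, and 1 had an unadjusted p under 0.05 each time. CAND1 footprints had a log2 fold change of -0.70 at 6 h (SE 0.44, edgeR adjusted p = 0.889) and RANBP2 one of -0.87 (SE 0.35, edgeR adjusted p = 0.889).

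To describe which genes varied like UBA1 and UBB, RNA levels on a log2 scale were centred within each group, and Pearson's r was taken over the 18 RNA libraries against 14017 protein-coding genes. Among the highest values for UBA1 were those of UTP20 (r = 0.960), SART3 (0.960), DCAF1 (0.959) and BMS1 (0.955). For UBB they were those of CHCHD7 (0.880), GEMIN6 (0.864), NAPA (0.864), ENSA (0.862) and CDK2AP2 (0.852). Libraries of a group differed in depth, for example from 40221994 to 67342802 counts in the 72 h DMSO group. The part of depth and handling in these values was not tested, and the values are a description. Between the 7 genes r was highest for the NEDD8 subunits UBA3 and NAE1 (0.785), then for SAE1 and UBB (0.659) and for the SUMO subunits UBA2 and SAE1 (0.624). For the ubiquitin E1 genes UBA1 and UBA6 it was 0.599, and for UBA1 and SAE1 it was -0.41. NAE1 and UBA3, the pair with the highest r within groups, had opposite signs in the comparison of actD with DMSO at 72 h.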

How the data were processed

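Total RNA (18 libraries) and ribosome footprints (18 libraries) of WiT49 cells were compared between actD and DMSO. The 6 tables deposited by the authors, with libraries in columns, hold whole numbers that are read as estimated counts per gene, because no counting program is named in them. HISAT2, StringTie and hg38 appear in the submitters' processing notes, without versions or roles. In the deposited 6 h and 2-week RNA tables small counts cluster at regular steps of more than 1 count, so no limit for a count of 0 is given there. RNA libraries came from stranded kits, per the labels' protocols, which name 2 extraction kits without saying which library used which.

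Symbols came from GENCODE 29 by identifier (99.4% of identifiers matched in both assays). The genes and lists were chosen with earlier results of these data known. edgeR 4.0.16 (R 4.3.3) quasi-likelihood tests used TMM scaling, filterByExpr (minimum count 10, total 15) and Benjamini-Hochberg adjustment over all genes tested (threshold 0.05), on the 6 libraries of a table. Translational efficiency was the assay by treatment term over 12 libraries, and the 72 h against 6 h test the treatment by time term. DESeq2 1.42.0 was an alternative. Named from the lists were called genes, or else the one with the largest log2 fold change at 1 CPM or more (RNA) or 50 CPM or more (footprints), and always RPS27A, UBE2Z, UBE2M and UBE2F where tested. Some genes that the rules name are not reported here. UBE2Z, UBE2F and RPS27A did not pass the footprint filter at 72 h. The fits were run on simulated counts with a fixed spread between libraries and large planted changes. This does not show how they handle small changes or the spread of the real footprint libraries. No 2 replicates agreed within sampling noise. In no table did all same-numbered pairs of actD and DMSO libraries have a correlation of deviations over 0.1, so the numbers were not used as pairs.

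No exact test of single genes was run, since with 3 libraries against 3 an exact permutation test cannot go below p = 0.1.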

Additional observations from a re-analysis of the deposited data

How the results depend on the processing

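Outside footprints and efficiency at 72 h, which are only described, the count of called genes among the 7 stayed at 0 over the alternatives, except in RNA at 72 h, where 1 fit over all time points called 1 (NAE1). UBA1 in RNA kept its sign under the alternatives at 6 h and 72 h, and its 72 h footprint and efficiency values ranged from -2.63 to -2.08 and from -2.02 to -1.33. Grouped by title, the 2-week RNA log2 fold changes were 0.52 (UBA1), 0.15 (UBA6), 0.0080 (UBA2), -0.023 (SAE1), -0.095 (UBA3), 0.048 (NAE1) and -0.097 (UBB), and efficiency was -1.10 (UBA1) and 0.12 (UBB). With library totals in place of TMM, which moved the median of all genes to -0.18 in 2-week RNA and -0.55 in 6 h footprints, 2-week RNA gave -0.12 (SAE1), -0.056 (UBA3) and -0.050 (UBB), 6 h footprints -1.33 (UBA1) and -0.12 (UBB), 2-week footprints -0.0053 (NAE1) and -0.10 (UBB), and 2-week efficiency 0.054 (UBA1). UBA2 RNA at 2 weeks was 0.0026 with DESeq2 and 0.013 in 1 fit over all time points. UBA1 efficiency at 6 h was 0.011 in protein-coding genes alone.

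Leaving out 1 library turned the sign of the values given next. The ranges in RNA at 6 h were -0.034 to 0.077 (NAE1), -0.044 to 0.13 (SAE1), -0.085 to 0.041 (UBA2), -0.17 to 0.0019 (UBA3) and -0.16 to 0.024 (UBA6), and at 2 weeks -0.12 to 0.013 (NAE1), -0.043 to 0.13 (SAE1) and -0.081 to 0.13 (UBA2). In UBB footprints of 6 h, 72 h and 2 weeks they were -0.17 to 0.53, -0.92 to 0.20 and -0.22 to 0.30. For efficiency they were -0.20 to 0.16 (UBA1) and -0.39 to 0.23 (UBB) at 6 h, -0.16 to 0.37 (NAE1) and -0.91 to 0.18 (UBB) at 72 h, and -0.62 to 0.18 (UBA1) and -0.31 to 0.21 (UBB) at 2 weeks. NAE1 did not pass the filter in some alternatives at 2 weeks, and the cause of these changes was not tested.

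The numbers were not taken to pair actD with DMSO libraries, since in no table did every pair have a correlation of deviations over 0.1. For 6 h, 72 h and 2 weeks in turn, r ran from -0.152 to -0.0343, 0.0743 to 0.254 and -0.0258 to 0.189 in RNA, and from -0.718 to -0.0741, -0.0685 to 0.0409 and -0.00946 to 0.341 in footprints. RNA and footprints of the same actD number at 72 h did deviate together (0.173 to 0.408). In RNA at 72 h all 6 libraries deviated most like the library of their own number in the other group, a hint from the data alone, and 0 to 4 did in the other tables. With a replicate block, UBA1 efficiency at 6 h was 0.0086, UBA1 at 72 h was -0.88 in RNA and -2.43 in footprints, and the count of all genes called in 72 h footprints went from 92 to 0. In that fit the edgeR adjusted p of CAND1 footprints was 0.144, with library totals 0.256 and with no filter 0.0520.

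Counts of all genes called depended on the setting. In 72 h footprints 92 became 5 with library totals, 321 with no filter and 182 in protein-coding genes alone. In RNA, DESeq2 raised the counts from 0, 1 and 0 to 204, 605 and 197 at 6 h, 72 h and 2 weeks, and from 4 to 158 in the 72 h against 6 h test. In 1 fit over all time points 1212 were called in RNA at 72 h, and 1 each in RNA and footprints at 6 h. With library totals 6 were called in RNA at 2 weeks. With no filter there was 1 in RNA and 11 in footprints at 2 weeks, and 16 in footprints at 6 h, where DESeq2 called 12. Of the 10 for efficiency at 72 h, DESeq2 made 59 and TMM over all 12 libraries 16, and at 2 weeks 27 were called with the RNA groups by title. The replicate block left 0 for efficiency and RNA at 72 h and in the 72 h against 6 h test. With 1 library left out the counts ran from 0 (without actD or DMSO library 1 or 2) to 282 (without actD library 3) in 72 h footprints, 7 to 41 for efficiency at 72 h, 0 to 6, 0 to 3 and 2 to 10 in RNA at 6 h, 72 h and 2 weeks, and 1 to 38 in the 72 h against 6 h test. In footprints 4 of the 7 genes held 0 to 15 counts a library and did not pass the filter. The part of depth in this was not tested.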
